A study of Mus musculus with 3 samples.

Results

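The 9 genes described here mark macrophages: Lyz2, Adgre1, Cd14, Ms4a7, Cd68, Cd163, Msr1, Spi1 and Cebpb. They were taken by symbol from the 37224 gene IDs of 3 RNA-seq libraries, and all 9 were found. The libraries came from immune cells sorted out of the intestinal epithelium of RAG-2 null mice, which cannot assemble antigen receptors and so lack T and B cells. The iCD8a library held CD45+ CD8α+ cells, the ILC1 library NKp46+ NK1.1+ group 1 innate lymphoid cells, and the CD11b+ library myeloid cells that were CD45+, CD8α- and CD11b+. All 3 groups share the RAG-2 null genotype, and no wild-type group was analysed here. Each group had 1 library, so no difference below has a replicate check and no test between populations was possible. The age and sex of the mice, and whether cells of several mice were pooled, were not stated in the labels or series text.

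Macrophages are tissue phagocytes that take up dead cells, microbes and debris, break them down in lysosomes and respond to bacterial products. Their identity is set by lineage transcription factors, above all PU.1, the product of Spi1, together with C/EBP proteins such as C/EBPβ, the product of Cebpb. In the gut wall they are replenished largely from blood monocytes and lie close below the epithelium. Several of the genes described here are shared with monocytes, dendritic cells or granulocytes, and Cebpb is also used by many other cell types.

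Promoter sequences were available from RefSeq (GRCm38.p6) for 5 of the 9 genes: Cebpb, Cd163, Lyz2, Cd68 and Ms4a7. Those of 4 members are shown because they span the range of levels reported below, from the most abundant member in CD11b+ cells (Lyz2) to the least abundant (Cd163), with the gene of intermediate breadth (Cd68) and the most broadly detected gene (Cebpb). Each run is given 5′ to 3′ and ends just before the outermost annotated start. Capitals mark matches on either strand to GAGGAA, the core bound by PU.1, and to TTGCNNAA, a C/EBP motif.
Lyz2, chr10:117282322-117282522, minus strand: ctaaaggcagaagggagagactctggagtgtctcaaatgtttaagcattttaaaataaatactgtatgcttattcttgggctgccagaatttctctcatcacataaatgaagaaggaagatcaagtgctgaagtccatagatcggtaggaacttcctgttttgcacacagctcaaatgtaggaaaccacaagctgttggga
Cd68, chr11:69666171-69666420, minus strand: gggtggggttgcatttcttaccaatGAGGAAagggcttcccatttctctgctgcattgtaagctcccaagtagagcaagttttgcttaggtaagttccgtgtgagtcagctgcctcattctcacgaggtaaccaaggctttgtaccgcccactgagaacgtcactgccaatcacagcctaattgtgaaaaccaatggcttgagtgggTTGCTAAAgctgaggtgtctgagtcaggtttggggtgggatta
Cd163, chr6:124304401-124304650, plus strand: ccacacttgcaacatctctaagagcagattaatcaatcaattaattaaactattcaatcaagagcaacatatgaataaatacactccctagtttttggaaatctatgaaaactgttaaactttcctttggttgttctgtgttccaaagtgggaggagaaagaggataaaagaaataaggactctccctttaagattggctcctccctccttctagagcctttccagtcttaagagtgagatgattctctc
Cebpb, chr2:167688665-167688914, plus strand: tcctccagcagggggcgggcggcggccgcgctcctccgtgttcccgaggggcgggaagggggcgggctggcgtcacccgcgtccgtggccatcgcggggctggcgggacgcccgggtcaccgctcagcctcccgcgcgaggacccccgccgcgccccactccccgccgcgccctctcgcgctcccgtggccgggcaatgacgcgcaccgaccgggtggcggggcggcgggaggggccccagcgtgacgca
In the 250 bases before the RefSeq start, Cd68 held a GAGGAA match from base -225 to -220 and a TTGCNNAA match from -43 to -36, which do not overlap. It also held 2 matches to TGANTCA, the AP-1 motif, from -149 to -143 and from -24 to -18. The same windows of Lyz2, Cd163 and Cebpb, and the first of the 2 Ms4a7 windows, held no match to these 3 motifs or to the TATA box TATAAA, and the second Ms4a7 window held 1 TGANTCA match. Among 32851 promoter windows of that length, 23.3% held GAGGAA, 9.56% TTGCNNAA, 6.75% TGANTCA and 12.4% TATAAA on either strand. A match describes letters and is not a binding site. Base composition set Cebpb apart: its window was 81.6% G or C with 41 CpG dinucleotides, and 99.1% of all windows held as many or fewer. Lyz2 (41.6% and 1 CpG), Cd163 (36.8% and 0) and Cd68 (49.2% and 4) lay below the median window, at 52.4% and 6.

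The iCD8a library held 21678113 gene-assigned reads, the ILC1 library 22181660 and the CD11b+ library 30511296. Levels are given as CPM (counts per 1000000 gene-assigned reads), scaled by TMM factors that correct library size for composition. Ranges in brackets are 95% exact intervals that cover counting error only, not the spread between mice. The genotype gene Rag2 had 0 counts in each library, which is a weak check since mature leukocytes make little of it. The sort markers followed the gates, with Cd8a highest in iCD8a, Ncr1 in ILC1 and Itgam in CD11b+, although Itgam, which encodes CD11b, was also counted at 362 CPM in iCD8a and 187 CPM in ILC1. In bulk libraries, fewer cells of a type and less RNA per cell cannot be told apart.

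All 9 genes had their highest level in the CD11b+ library. A pair of libraries was called different for a gene by 3 criteria together: a fold of 4 or more, an interval whose bound nearer to 1 reached 2, and 5 CPM or more on the higher side. On these criteria 8 of the 8 members that reached 5 CPM were higher in CD11b+ than in iCD8a, where 13.4% of all 10821 such genes were. The same 8 members were higher in CD11b+ than in ILC1, against 13% of 10734 genes. Cd163 was the member that did not reach 5 CPM in any library. Between the lymphoid libraries, 4 of 7 members with at least 5 CPM, Lyz2, Adgre1, Cd14 and Msr1, were higher in ILC1 than in iCD8a, against 4.89% of 10110 genes. In the opposite directions 0 members were higher in iCD8a than in CD11b+ (6.13% of all genes), 0 in ILC1 than in CD11b+ (6.01%) and 0 in iCD8a than in ILC1 (3.52%). Over all 9 members the log2 ratios had a median of -7.01 for iCD8a over CD11b+, -4.26 for ILC1 over CD11b+ and -1.15 for iCD8a over ILC1. Over the 13649 genes that reached 1 CPM somewhere the same medians were 0.04, 0.00 and 0.04. The comparisons with CD11b+ share that library, so they are not independent of each other.

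**Figure D1:**
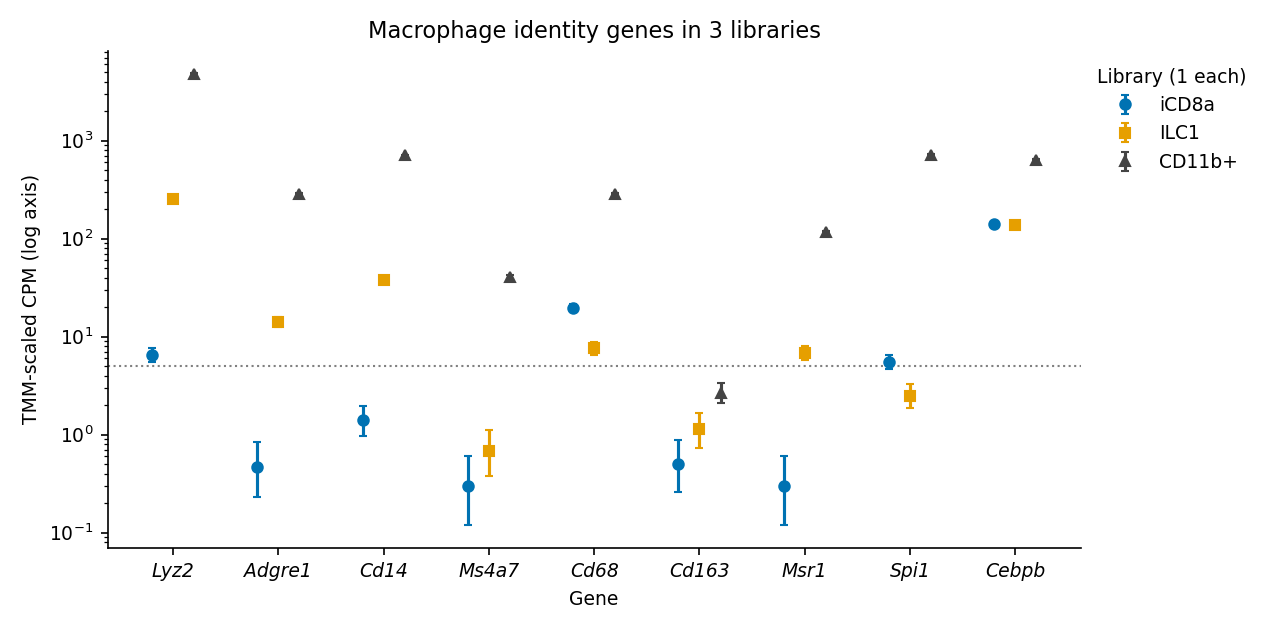
Level of each of the 9 genes in the 3 libraries, in TMM-scaled CPM on a log axis, with 95% exact Poisson intervals (counting error only). The dotted line marks 5 CPM. The CD11b+ triangles are highest for every gene, and Cd163 stays below the line in each library.

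**Figure D2:**
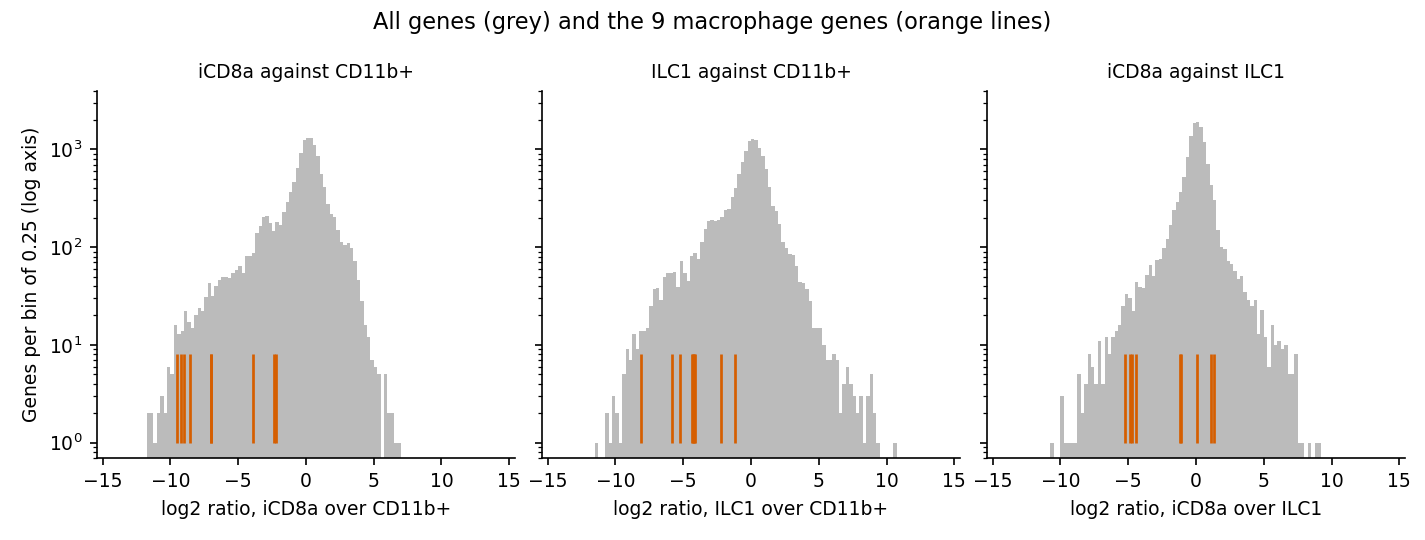
Log2 ratios of 13649 genes (grey, genes per bin on a log axis) in the 3 comparisons, with the 9 members as orange lines. The members lie left of 0 in both comparisons with CD11b+, and on both sides of 0 in the comparison of iCD8a with ILC1.

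The lineage factor Spi1 showed a wide separation. It had 131 counts in iCD8a (5.54 CPM, 4.63 to 6.58), 55 in ILC1 (2.50 CPM, 1.88 to 3.25) and 20179 in CD11b+ (715 CPM, 705 to 725). Its level in CD11b+ was 129-fold above iCD8a (109 to 154) and 286-fold above ILC1 (220 to 380.0), the widest gap of any member against ILC1. Between the lymphoid libraries Spi1 was 2.22-fold higher in iCD8a (1.61 to 3.10), below the 4-fold rule. Its relatives had other patterns. Spib, a factor of plasmacytoid dendritic cells and B cells, was highest in iCD8a at 94.7 CPM, against 11.5 CPM in CD11b+ and 0.682 CPM in ILC1. Spic, a factor of red pulp macrophages, had between 24 and 27 counts in each library.

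Cebpb was the most broadly counted member. It had 3365 counts in iCD8a (142 CPM, 138 to 147), 3005 in ILC1 (137 CPM, 132 to 141) and 18112 in CD11b+ (642 CPM, 633 to 651). The CD11b+ level was 4.51-fold above iCD8a (4.34 to 4.68) and 4.70-fold above ILC1 (4.52 to 4.89), the smallest gaps among the members that passed the rule. With library totals in place of TMM factors, the log2 ratio of iCD8a over CD11b+ moved from -2.17 to -1.94 and Cebpb no longer passed at 4-fold. iCD8a and ILC1 were not told apart for Cebpb beyond counting error, with a ratio of 1.04 (0.993 to 1.10) that fell marginally on the other side of 1 with upper-quartile factors. An annotated gene on the opposite strand, Tmem189, covers 312 exon bases of Cebpb, 20.7% of its exon length, and without a stated strand setting reads there cannot be assigned with certainty.

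Only some of the other C/EBP genes passed the rule toward CD11b+, and 0 passed it the other way. Cebpa, which acts earlier in myeloid commitment, reached 57.8 CPM in CD11b+ against 5.25 in iCD8a and 2.45 in ILC1, and Cebpe, a factor of granulocyte maturation, reached 5.53 CPM against 0.169 and 0.227. Both passed the rule toward CD11b+ in each comparison, as 2 of 5 tested relatives. Cebpd did not pass, at 3.98, 3.86 and 9.996 CPM. Cebpg (47.2, 59.5 and 36.7 CPM) and Ddit3, a stress-induced member of the family (39.1, 63.4 and 22.4 CPM), were not above the lymphoid libraries in CD11b+.

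Adgre1, which encodes the F4/80 antigen used to recognise mouse macrophages, had 11 counts in iCD8a (0.466 CPM), 311 in ILC1 (14.1 CPM) and 8133 in CD11b+ (288 CPM). The 3 libraries were thus spread over 3 separate levels with no overlap of their counting intervals. CD11b+ stood 619-fold above iCD8a (346 to 1241) and 20.4-fold above ILC1 (18.2 to 22.9), and ILC1 stood 30.4-fold above iCD8a (16.7 to 61.4). Adgre4, a close relative in the same receptor subfamily, followed toward CD11b+ at 0.212, 0.9997 and 144 CPM. Adgre5, which encodes CD97 and is carried by many leukocytes, was at 71.2, 331 and 650 CPM, and its 1.96-fold gap between CD11b+ and ILC1 did not pass the rule.

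Cd14, the co-receptor that hands bacterial lipopolysaccharide to the TLR4 complex, had 33 counts in iCD8a (1.40 CPM), 841 in ILC1 (38.2 CPM) and 20009 in CD11b+ (709 CPM). CD11b+ was 508-fold above iCD8a (362 to 738) and 18.6-fold above ILC1 (17.3 to 19.9). ILC1 was 27.4-fold above iCD8a (19.3 to 40.0). Per kilobase of exon, Tlr4 and Ly96 lay below Cd14 in ILC1 and CD11b+, and in iCD8a Ly96 lay above it (1.45 against 0.806 CPM per kb). Tlr4, the signalling receptor, had 1, 28 and 310 counts. Ly96, which encodes its partner MD-2, had 35, 15 and 89. Of 10 tested genes of lipopolysaccharide and TLR adaptor signalling other than Cd14, 5 were higher in CD11b+ than in iCD8a, 5 were higher in CD11b+ than in ILC1 and 0 were lower. Tlr2, a receptor for bacterial lipoproteins, was at 3.13, 7.63 and 163 CPM and the adaptor Ticam2 at 0.719, 1.91 and 19.4 CPM, and both were higher in CD11b+ than in each lymphoid library. The adaptor Tirap passed against iCD8a alone. The cytosolic adaptors Myd88 and Ticam1 and the kinases Irak1 and Irak4 did not pass in any comparison. Ly86, which encodes MD-1, and its partner Cd180 had more counts in iCD8a than in ILC1 and passed the rule, with Ly86 at 22.1 CPM against 1.41 and Cd180 at 19.6 CPM against 0.773, the reverse of the order of Cd14.

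Ms4a7, a tetraspanning membrane protein gene of mature macrophages, had 7 counts in iCD8a (0.296 CPM), 15 in ILC1 (0.682 CPM) and 1147 in CD11b+ (40.7 CPM). CD11b+ was 137-fold above iCD8a (66.4 to 342) and 59.6-fold above ILC1 (36.0 to 107). The lymphoid libraries were not told apart, at 2.30-fold with an interval from 0.883 to 6.67. Ms4a4c, Ms4a6c and Ms4a6d, myeloid members of the same gene cluster, showed the same order, at 91.0, 341 and 85.8 CPM in CD11b+ and at most 7.27 CPM elsewhere, and Ms4a8a followed at 1.27, 2.68 and 20.2 CPM. Ms4a6b did not: at 36.0, 105 and 137.5 CPM it was 1.31-fold higher in CD11b+ than in ILC1 (1.24 to 1.38) and passed in no comparison. Ms4a4b, a lymphocyte member, went the other way between ILC1 and CD11b+, at 245 CPM in ILC1 against 5.64 in CD11b+ and 0.719 in iCD8a. Against iCD8a it was higher in CD11b+, by 7.83-fold (4.74 to 13.8). The B cell member Ms4a1, which encodes CD20, had 0, 0 and 6 counts.

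Lyz2, the lysozyme of macrophages and other myeloid cells, was the most abundant member in CD11b+ and the fifteenth most counted of all genes there. It had 154 counts in iCD8a (6.52 CPM, 5.53 to 7.63), 5546 in ILC1 (252 CPM, 245 to 259) and 136651 in CD11b+ (4844 CPM, 4818 to 4870). CD11b+ stood 743-fold above iCD8a (635 to 876), the widest gap of any member against that library, and 19.2-fold above ILC1 (18.7 to 19.8). ILC1 stood 38.7-fold above iCD8a (33.0 to 45.7). Its neighbour and close relative Lyz1, the lysozyme of Paneth cells, was at 9.78, 16.6 and 148 CPM. Of the 1267 windows of 50 bases in Lyz2 transcripts, 195 (15.4%) also occur in Lyz1, so reads from those stretches were open to loss as not unique, and part of the Lyz1 or Lyz2 count is uncertain. Paneth cell genes as a list summed to 25.9, 36.5 and 286 CPM (iCD8a, ILC1, CD11b+), most of it Lyz1 itself and the defensin gene Defa24, at 62.9 CPM in CD11b+. The part of such cells in the lysozyme counts was not tested.

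Cd68, a heavily glycosylated protein of late endosomes and lysosomes, had 460 counts in iCD8a (19.5 CPM, 17.7 to 21.3), 169 in ILC1 (7.68 CPM, 6.57 to 8.93) and 8083 in CD11b+ (286 CPM, 280.3 to 293). It was 14.7-fold higher in CD11b+ than in iCD8a (13.4 to 16.2) and 37.3-fold higher than in ILC1 (32.0 to 43.7). Unlike Lyz2, Adgre1, Cd14 and Msr1, it was higher in iCD8a than in ILC1, by 2.54-fold (2.12 to 3.04), which did not pass at 4-fold. The lysosomal membrane proteins Lamp1 and Lamp2, which cells of all kinds carry, were also highest in CD11b+ but with narrower gaps, at 207, 171 and 790 CPM for Lamp1 and 75.8, 49.3 and 304 CPM for Lamp2.

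Msr1, the class A scavenger receptor that takes up modified lipoproteins and bacteria, had 7 counts in iCD8a (0.296 CPM), 149 in ILC1 (6.77 CPM) and 3301 in CD11b+ (117 CPM). CD11b+ was 395-fold above iCD8a (191.5 to 983) and 17.3-fold above ILC1 (14.7 to 20.5), and ILC1 was 22.9-fold above iCD8a (10.8 to 57.8). Cd163, the receptor for haptoglobin-haemoglobin complexes, was scarce throughout. It had 12 counts in iCD8a (0.508 CPM, 0.262 to 0.887), 25 in ILC1 (1.14 CPM, 0.735 to 1.68) and 75 in CD11b+ (2.66 CPM, 2.09 to 3.33). Its level in CD11b+ was 5.24-fold above iCD8a (2.83 to 10.6) and 2.34-fold above ILC1 (1.47 to 3.84), so it missed the rule on level alone against iCD8a, and on level, fold and interval against ILC1. Per kilobase of exon Cd163 was the lowest of the members in CD11b+, whereas Ms4a7 had a lower value than Cd163 in both lymphoid libraries. There Ms4a7 rested on 7 counts in iCD8a and 15 in ILC1, so its order with Cd163 is not firm.

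Most other tested scavenger receptors were higher in CD11b+ than in each lymphoid library. Against iCD8a, 6 of 7 were higher in CD11b+ and 0 lower. Against ILC1, 6 of 9 tested non-member genes of the scavenger receptor list were higher in CD11b+ (Cxcl16, Scarb1, Stab1, Cd36, Olr1 and Mrc1). In that list 1 gene, Cd5l, was higher in ILC1. Cd5l, a secreted protein of resident macrophages, was at 0.0423, 8.36 and 0.886 CPM in iCD8a, ILC1 and CD11b+. Marco, a relative of Msr1 on resident macrophages, had 0, 65 and 1 counts and was under 5 CPM. Cd163l1, a relative of Cd163 that γδ T cells also carry, was at 0.381, 11.2 and 3.55 CPM. The mannose receptor Mrc1 was at 0.127, 2.27 and 38.9 CPM. Scarb2, a lysosomal membrane protein, passed in no comparison, at 54.7, 61.0 and 97.0 CPM.

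**Figure D3:**
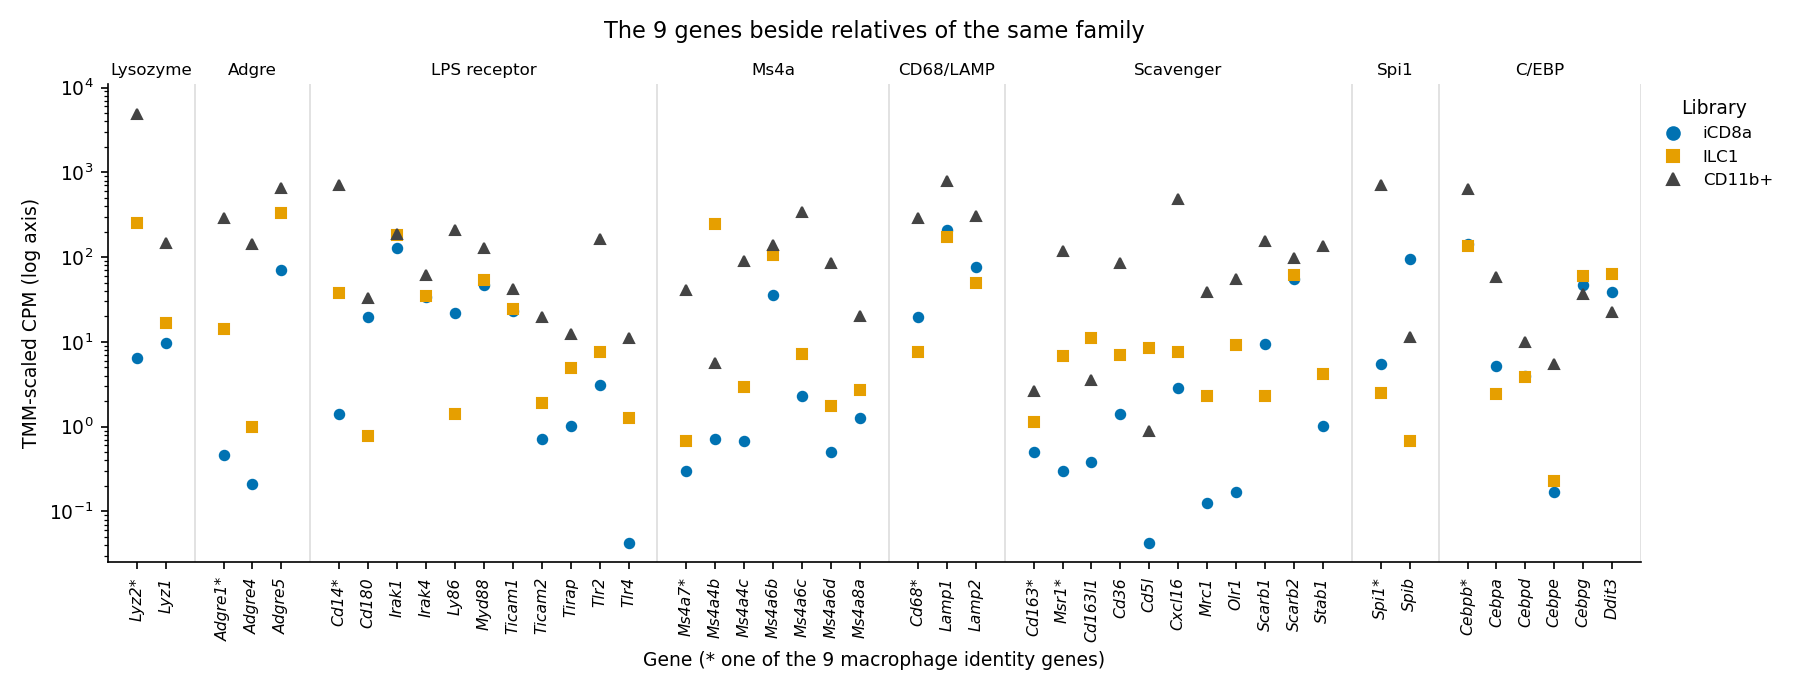
Levels in TMM-scaled CPM (log axis) of the 9 genes, marked with an asterisk, and of relatives of the same family or receptor complex with at least 5 CPM in any library. Symbols are single libraries without error bars. Relatives such as Spib, Ms4a4b, Cd5l and Ddit3 have their highest symbol in iCD8a or ILC1.

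Set against their own CD11b+ level, the members fell into different positions. In ILC1, Lyz2 stood at 5.20% of CD11b+ (5.06% to 5.34%), Adgre1 at 4.90% (4.36% to 5.49%), Cd14 at 5.39% (5.02% to 5.77%) and Msr1 at 5.79% (4.88% to 6.82%). These 4 intervals overlapped each other, although the genes differ widely in level. The others lay outside that band. Cd68 stood at 2.68% (2.29% to 3.12%), Ms4a7 at 1.68% (0.935% to 2.78%) and Spi1 at 0.349% (0.263% to 0.455%). Cebpb stood at 21.3% (20.5% to 22.1%) and Cd163 at 42.7% (26.0% to 68.0%). In iCD8a Cebpb at 22.2% (21.4% to 23.0%) and Cd163 at 19.1% (9.45% to 35.4%) again had the largest shares. The order of the other members was different. Lyz2, Adgre1, Cd14 and Msr1 stood between 0.135% and 0.253% of CD11b+, Ms4a7 at 0.729%, Spi1 at 0.775% (0.648% to 0.920%) and Cd68 at 6.79% (6.17% to 7.46%). A scaling factor multiplies all shares of a library alike, so the order among members does not depend on it.

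**Figure D4:**
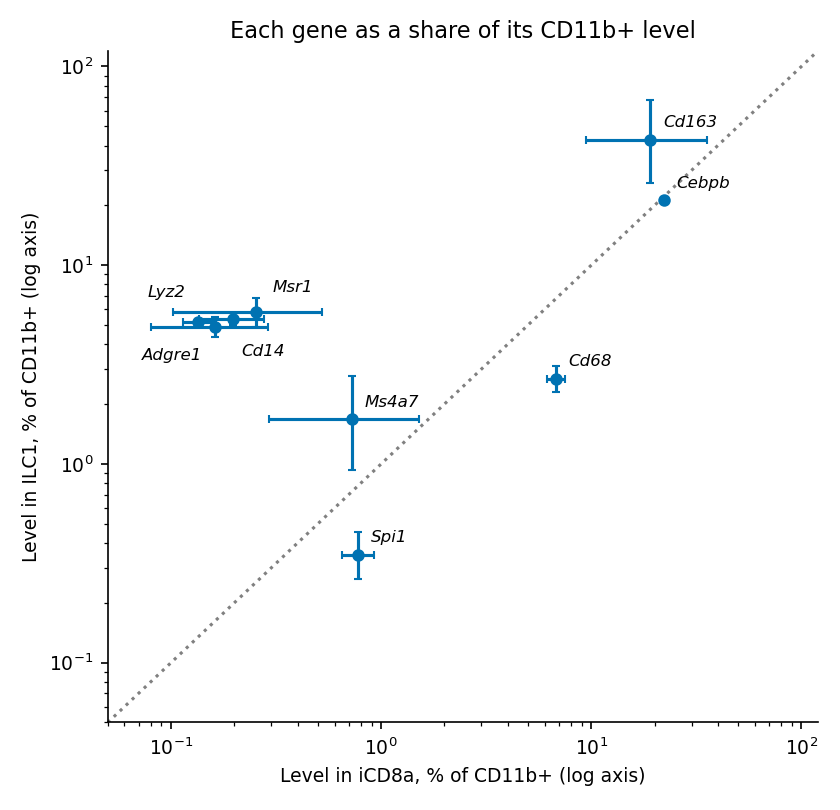
Level of each member in iCD8a (horizontal) and ILC1 (vertical) as a percentage of its CD11b+ level, both on log axes, with 95% exact counting intervals. Lyz2, Adgre1, Cd14 and Msr1 sit together near 5% in ILC1 and below 0.3% in iCD8a, while Cd68 and Spi1 lie below the dotted line of equal shares.

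Markers of peritoneal-type macrophages that reached 5 CPM in ILC1 were below 5 CPM in iCD8a. Their shares of the CD11b+ level differed from those of Lyz2, Adgre1, Cd14 and Msr1. The list of 17 peritoneal macrophage genes had a summed level of 501 CPM in ILC1, 10.96 in iCD8a and 1236 in CD11b+. The largest contributor in ILC1 and CD11b+ was Fn1, the gene of fibronectin, at 1.40, 270.5 and 896 CPM. Of 11 tested genes of that list, 11 were higher in ILC1 than in iCD8a, against 4.89% of all 10110 tested genes. All 11 reached 5 CPM in ILC1 only, so no call toward iCD8a was possible for them. Of 12 genes of the list tested against CD11b+, 4 were higher in ILC1, namely Prg4, Icam2, Saa3 and Cd5l, and 3 in CD11b+. The shares over all genes were 6.01% and 13%. In ILC1 the 7 listed genes with at least 20 CPM in CD11b+ stood at 9.99% to 69.5% of CD11b+ (median 30.2%). These shares lay above those of Lyz2, Adgre1, Cd14 and Msr1. Prg4, which encodes lubricin, was at 0.508, 56.0 and 4.998 CPM. Gata6, the defining factor of large peritoneal macrophages, had only 4, 15 and 64 counts, and Wt1 had 0, 0 and 1. In ILC1 the complement genes C1qa, C1qb and C1qc stood at 9.55%, 10.9% and 10.6% of CD11b+ and Apoe at 11.3%, above the band of the 4 members. Csf1r, the receptor for the macrophage growth factor, was at 14.4 CPM in ILC1 and 960 in CD11b+, and Fcgr1, which encodes CD64, stood at 1.22% of CD11b+, both below that band. Whether such cells contributed to the ILC1 library was not tested.

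Per kilobase of merged exon length, which allows levels to be set side by side between genes, the order in CD11b+ was Lyz2 (3681 CPM per kb), Cebpb (427), Cd14 (409), Spi1 (265), Cd68 (228), Adgre1 (89.0), Msr1 (18.4), Ms4a7 (9.13) and Cd163 (0.487). In ILC1 it was Lyz2 (191 CPM per kb), Cebpb (90.8), Cd14 (22.1), Cd68 (6.11), Adgre1 (4.36), Msr1 (1.07), Spi1 (0.927), Cd163 (0.208) and Ms4a7 (0.153). In iCD8a Cebpb led at 94.7 CPM per kb, followed by Cd68 (15.5), Lyz2 (4.95), Spi1 (2.06) and Cd14 (0.806), and the other 4 lay between 0.0467 and 0.144. Spi1 thus held the fourth place in CD11b+ and iCD8a and the seventh in ILC1. Lengths came from GENCODE M21 and may differ from the annotation the reads were counted on. Nearby places in this order are therefore not firm.

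The genes most like each member were sought among 7981 other protein-coding genes with at least 20 CPM in some library, by Euclidean distance over 3 centred log2 levels, 1 per library. With 3 points a small distance is a description only. When candidates from 5 CPM were admitted, Msr1 kept 3 of its 3 nearest genes, Spi1 kept 1, and each of the other members named here kept 2. Spi1 was nearest to Cyp4f18 (distance 0.0579), Mgl2 and Plbd1, and Mgl2 encodes a lectin of macrophages and dendritic cells. Cd68 was nearest to Ptafr, the receptor for platelet-activating factor (0.0567, at 20.4, 7.77 and 306 CPM), followed by Rbm47 and Mcpt2. Ms4a7 was nearest to Zfyve9 (0.102), Oas2 and Il13ra1, and Cebpb to Slc31a2 (0.0735), Rsad2 and Ttyh2. Lyz2 was nearest to Emilin2, a matrix glycoprotein gene (0.291, at 0.635, 29.3 and 647 CPM), followed by C3ar1 and Serpinb8. Il1a, the cytokine interleukin 1α, and Anxa3 were among the 3 nearest of Adgre1, Cd14 and Msr1, completed by C3ar1 for the first pair and by Ltb4r1 for Msr1. Anxa3, C3ar1 and Serpinb8 each rested on 1 count in iCD8a, and Ltb4r1 on 2.

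Most genes of a core macrophage list followed the 9 in the comparisons with CD11b+. Of its 30 tested genes, 20 were higher in CD11b+ than in iCD8a and 0 lower, and 23 were higher than in ILC1 and 0 lower. Their median log2 ratios were -4.17 and -3.47. Below the 4-fold rule some went the other way. Ctsd (514, 405 and 214 CPM in iCD8a, ILC1 and CD11b+) and Fcer1g (870, 410 and 331 CPM) were lowest in CD11b+. In iCD8a, Csf1r was at 1.44 CPM. Mertk, a receptor for dead cells, was at 0.212, 1.45 and 17.4 CPM. Between iCD8a and ILC1 the core list was divided, with 4 genes higher in iCD8a (Sirpa, Cd63, Mpeg1 and Csf2rb) and 7 in ILC1, among them Csf1r, C1qa, C1qb, C1qc, Apoe and Cd83. Mpeg1, the pore-forming protein perforin-2, stood at 374 CPM in iCD8a compared with 13.1 in ILC1. Of 18 tested macrophage transcription factors other than Spi1 and Cebpb, 13 were higher in CD11b+ than in iCD8a and 8 than in ILC1, while Maf (214 CPM against 40.1) and Irf8 (1183 CPM against 239) were higher in ILC1 than in CD11b+.

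Many tested markers of several further cell types were higher in CD11b+, beside the members. Over all tested genes, 13.4% were higher in CD11b+ than in iCD8a and 13% than in ILC1. In the monocyte list 10 of 12 tested genes exceeded iCD8a and 7 of 12 exceeded ILC1, and the list summed to 660 (iCD8a), 3454 (ILC1) and 4579 CPM (CD11b+). Most of the ILC1 sum was Nr4a1, an activation-induced nuclear receptor that was at 2455 CPM there and 1088 CPM in CD11b+. Monocyte genes such as Chil3 (0.254, 0.273 and 207 CPM) and F13a1 (0.466, 3.63 and 252 CPM) were low in both lymphoid libraries. The classical dendritic cell list had 9 of 14 above iCD8a and 9 of 13 above ILC1, with sums of 4406, 2613 and 5164 CPM. In each comparison 1 gene went the other way, Clec9a toward iCD8a and Irf8 toward ILC1. Itgae (2990 CPM) and Itgax (722 CPM) made up most of the iCD8a sum, and Irf8 (1183 CPM) and Itgax (956 CPM) most of the ILC1 sum. Single markers differed in order. Cd209a was at 9.39, 0.682 and 314 CPM and Flt3 at 35.1, 0.682 and 280 CPM. Clec9a was at 21.9, 0.182 and 3.97 CPM, Zbtb46 at 3.05, 92.15 and 49.2 CPM, and Xcr1 at 2.33, 4.27 and 3.47 CPM. The neutrophil list had 7 of 8 tested genes above iCD8a and 6 of 8 above ILC1, with sums of 8.51, 56.8 and 584 CPM, and 2 of its genes, Ly6g and Elane, were at 0 in CD11b+. The eosinophil list had 4 of 4 above iCD8a and 3 of 4 above ILC1, with sums of 1.06, 42.7 and 235 CPM. Most of its ILC1 sum was Alox15 (41.5 CPM), which is also in the peritoneal macrophage list. The mast cell and basophil list had 4 of 4 above each. Every tested gene of the neutrophil, eosinophil, and mast cell and basophil lists was below 5 CPM in iCD8a. No call toward iCD8a was therefore possible for these genes. The intestinal epithelial list had 17 of 20 above iCD8a and 18 of 20 above ILC1, with sums of 913, 534 and 2120 CPM. Cdh1 (359 CPM), Cdh17 (193 CPM) and Epcam (154 CPM) made up most of the iCD8a sum, and Cdh1 (289 CPM) most of the ILC1 sum. For the 19 listed genes with at least 20 CPM in CD11b+, the median share of that level was 12.2% in iCD8a and 12% in ILC1. The plasmacytoid dendritic cell list went the other way against iCD8a, with 6 of 10 tested genes lower in CD11b+ and 0 higher, and was split against ILC1 with 2 of 8 each way. Since Lyz2, Cd14, Cd68, Spi1 and Cebpb are also used by monocytes, dendritic cells or granulocytes, the 9 genes alone do not separate macrophages from these cells. Their part in the members' levels was not tested.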

How the data were processed

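RNA was sequenced from 3 sorted populations, 1 library each, grouped by the cell type label. Per the series' design text, the authors used TopHat for alignment and HTSeq for counting. CASAVA 1.9 and TopHat2 stand in the submitters' processing notes. In the sources used here, the build, annotation and strand setting are not given. The deposited values are raw counts by Ensembl ID that the authors had not normalized. The 5 closing rows that name no gene were left out, and the non-unique alignments among them held 26.9% (iCD8a), 34.5% (ILC1) and 30.5% (CD11b+) of the total.

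Symbols came from GENCODE M21 by Ensembl ID. edgeR 4.0.16 (R 4.3.3) gave TMM factors of 1.09, 0.992 and 0.925 for iCD8a, ILC1 and CD11b+. Folds are ratios of scaled counts with 95% exact conditional binomial intervals (Clopper-Pearson, scipy 1.17.1), and levels have exact Poisson intervals. The sources name no molecular identifiers, so reads may be PCR copies and intervals cover counting error only. Log2 ratios used a prior count of 0.5. With 1 library per group edgeR and DESeq2 1.42.0 supplied scaling factors, and no p-value could be had. List medians and counts leave out the members, and medians use genes that reached 1 CPM somewhere. The steps were tested on simulated counts.

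The 9 members and all gene lists were chosen with earlier results of these data known. Named were the members, examples of their family genes with at least 5 CPM, examples among the most abundant or most separated genes of the other lists, and the 3 nearest genes of each member that passed the rule. Genes named outside that rule (such as Ms4a1, Spic, Marco, Ly96, Gata6, Wt1, Mpo, Ly6g, Elane and Epx, and genes listed in full behind a small count) were chosen after their values were seen. Alternatives were other scaling factors, removal of 37 mitochondrially encoded genes or of each library's 50 most counted genes, thinning, and other folds, CPM minimums and prior counts.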

Additional observations from a re-analysis of the deposited data

How the results depend on the processing

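The 8 members higher in CD11b+ than in iCD8a and the 8 higher than in ILC1 were 7 to 9 and 7 or 8 under 10 alternatives each. Cebpb was lost against iCD8a with library totals in place of TMM factors, and against both at a fold of 8, and Cd163 was gained against iCD8a at a minimum of 1 CPM. Among all tested genes, calls in either direction for iCD8a and for ILC1 against CD11b+ were 19.5% and 19% by the rule used. They were 37.2% and 38% at a fold of 2, and 12% and 11.6% at a fold of 8. At a minimum of 1 CPM they were 23.5% and 22%. The 4 members higher in ILC1 than in iCD8a were 2 at a minimum of 20 CPM, where Adgre1 and Msr1 are not tested by construction. At a fold of 2 the calls were 6, with Cd68 and Spi1 added as higher in iCD8a. Calls among all tested genes between iCD8a and ILC1 were 8.41% by the rule used. They were 6.65% at a minimum of 20 CPM and 20.3% at a fold of 2. Of 27 log2 ratios, 26 kept their sign under every alternative scaling, removal, thinning and prior count, the exception being Cebpb between iCD8a and ILC1 (-0.01 to 0.20). Library totals moved the median log2 ratio of all genes by 0.238 for iCD8a over CD11b+, 0.102 for ILC1 over CD11b+ and 0.136 for iCD8a over ILC1. Over other folds and minimums, genes higher in CD11b+ than in iCD8a numbered 936 to 2226 (1447 by the rule used) and than in ILC1 881 to 2251 (1391), and those higher in ILC1 than in iCD8a 299 to 1094 (494). In the opposite directions they numbered 273 to 1803 (663), 297 to 1830 (645) and 186 to 963 (356). No paired analysis was possible because each group has 1 library. Depth limits the members with 7 to 25 counts in the lymphoid libraries (Adgre1, Ms4a7, Cd163 and Msr1), whose intervals are wide. With candidates from 5 CPM, Spi1 kept 1 of its 3 nearest genes.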

Other observations

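Cd163 takes part in haemoglobin and iron handling. Of 9 tested genes of that pathway other than Cd163, 5 were higher in CD11b+ than in iCD8a and 7 than in ILC1, with 0 lower. Slc11a1, the phagosomal metal transporter, reached 243 CPM in CD11b+ against 5.46 in iCD8a and 7.22 in ILC1, and Slc40a1, which encodes the iron exporter ferroportin, was at 0.339, 0.409 and 20.9 CPM. Hmox1, the haem-degrading enzyme, was at 8.68, 5.36 and 60.2 CPM. Hp, which encodes haptoglobin, the plasma protein whose complexes Cd163 binds, was at 0.127, 0.9997 and 127 CPM. Per kilobase of exon its level in CD11b+ was 79.0 CPM, against 0.487 CPM for Cd163.

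Within the granulocyte lists, most of whose tested genes were higher in CD11b+ as the members were, levels in CD11b+ were uneven. Mmp9, Csf3r, Retnlg and Mmp8 of the neutrophil list were at 279, 130, 92.9 and 23.5 CPM, whereas Ly6g and Elane had 0 counts and Mpo 1. Of the eosinophil list, Siglecf was at 89.3 CPM, Ccr3 at 48.5 CPM and Ear2 at 30.6 CPM, with 5 counts of Epx.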
